A study of Mus musculus with 6 samples.

Results

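The MYC and MAX network was followed as a list of 10 genes named for their place in it: Myc, Mycn and Mycl, their shared partner Max, and the antagonists Mxd1, Mxd3, Mxd4, Mxi1, Mnt and Mga. All 10 were found by symbol among the 55376 genes of the count table, and 9 of them were among the 18054 genes with enough counts to be tested. The libraries came from muscle stem cells sorted from 3-month-old C57BL/6 mice, and all 6 were made by SMART-seq2, which amplifies whole cDNAs when little RNA is at hand. The groups were RNA immunoprecipitated with an antibody to CPEB4 (CPEB4 RIP), RNA recovered with a nonspecific immunoglobulin (IgG RIP) and the RNA before precipitation (input), with 2 libraries each. CPEB4 is a cytoplasmic protein that binds messages and regulates the length of their poly(A) tails and their translation. The 3 groups share strain, age and cell type, and the design asks which messages are recovered with CPEB4. The labels do not say whether the libraries of a group came from separate animals or how animals were pooled, so p-values measure only the spread between these libraries, which may be technical.

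MYC, MYCN and MYCL are transcription factors that bind DNA as dimers with MAX, at a short element called the E box, and raise the transcription of genes for ribosome assembly, metabolism and cell division. The MXD proteins, MXI1 and MNT also pair with MAX, occupy the same element and recruit corepressor complexes, so the balance between MYC and these antagonists sets the output of shared targets. Quiescent stem cells are generally held with low MYC activity, and MYC is induced as they leave quiescence.

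The E box that MYC and MAX bind is the letters CACGTG, which read the same on both strands. RefSeq windows on GRCm38.p6 that run 250 bases before to 50 bases after an annotated transcript start were given for 9 of the 10 members (all but Myc), in 11 windows. A transcript start can lie apart from the outer end of the gene, whose span is given with each gene below. The element was found in the windows of 3 members, Mxd4, Mnt and Max, compared with 8.09% of the 27025 genes that had a window and 7.15% of all 32851 windows. A match is a description of these letters and not a mapped binding site, and any link between the element and recovery with CPEB4 was not tested. Mxi1 was at higher values in both CPEB4 RIP libraries than in the other 4 libraries, but had no element in its windows. The 3 sequences are shown because their windows hold these letters and because all 3 messages were at higher values in both CPEB4 RIP libraries than in any of the other 4 libraries, as 22.1% of all genes tested were. They are written 5′ to 3′ on the strand of the gene, with the element in capitals. The Mxd4 stretch is chr5:34187711-34187960 on the minus strand, with the element beginning 219 bases before the transcript start. The Mnt stretch is chr11:74830674-74830923 on the plus strand, with the element beginning 123 bases before the transcript start the window is built on. The Max stretch is chr12:76962246-76962498 on the minus strand, where the element begins 3 bases before the transcript start of that window and runs across it.
Mxd4: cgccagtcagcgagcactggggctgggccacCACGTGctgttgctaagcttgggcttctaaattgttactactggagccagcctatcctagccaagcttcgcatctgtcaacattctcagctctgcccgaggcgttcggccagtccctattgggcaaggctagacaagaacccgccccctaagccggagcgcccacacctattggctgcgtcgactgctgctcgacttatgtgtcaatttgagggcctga
Mnt: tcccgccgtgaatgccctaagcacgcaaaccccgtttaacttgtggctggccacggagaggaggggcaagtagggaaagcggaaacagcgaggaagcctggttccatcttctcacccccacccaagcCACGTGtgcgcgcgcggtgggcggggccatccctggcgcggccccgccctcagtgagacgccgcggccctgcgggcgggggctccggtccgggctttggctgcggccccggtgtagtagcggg
Max: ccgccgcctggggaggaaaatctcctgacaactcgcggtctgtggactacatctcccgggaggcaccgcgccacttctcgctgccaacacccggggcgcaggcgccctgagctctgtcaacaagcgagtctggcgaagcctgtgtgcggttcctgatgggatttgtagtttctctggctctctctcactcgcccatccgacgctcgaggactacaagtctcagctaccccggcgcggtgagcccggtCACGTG

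Library totals were 9018323 to 20843042 counts. Levels are given as CPM, each library's counts scaled to a common total of 1000000 with TMM factors, which is a share within the library and carries no information on how much RNA was recovered. The network genes together took 0.0568% and 0.058% of the CPEB4 RIP counts, 0.14% and 0.116% of the IgG RIP counts and 0.227% and 0.17% of the input counts, most of them from Myc. All 11 muscle stem cell markers were detected in every group. Their summed level was 63250 to 69100 CPM in CPEB4 RIP, 61380 to 62620 CPM in IgG RIP and 46260 to 47530 CPM in input. Most of this sum was Sdc4, at 41600 to 61960 CPM over the libraries. The next highest marker, Myf5, had 1172 to 4794 CPM, so the sum says little about the other markers. Marker sums of other cell types were higher in CPEB4 RIP than in every other library for 4 of 5 lists. Leukocyte genes (9) summed to 109.6 to 116.5 CPM in CPEB4 RIP, 51.1 to 84.7 CPM in IgG RIP, with Itgam at 0 there, and 43.7 to 64.3 CPM in input. Fibro-adipogenic genes (6) summed to 1526 to 1996 CPM in CPEB4 RIP, 959 to 1367 CPM in IgG RIP and 661 to 850 CPM in input. Endothelial genes (6) summed to 311 to 434 CPM in CPEB4 RIP, 208 to 283 CPM in IgG RIP and 234 to 264 CPM in input, and erythroid genes (6) to 328 to 658 CPM in CPEB4 RIP, 88.0 to 147 CPM in IgG RIP and 109 to 179 CPM in input. Myofibre genes (7) summed to 161 to 209 CPM in CPEB4 RIP, 104 to 133 CPM in IgG RIP and 111 to 161 CPM in input. Mitochondrial transcripts took 4.84% and 4.5% of the CPEB4 RIP counts and 0.977% to 1.54% of those of the other libraries. Their part in the results below was not tested. The pair of IgG RIP libraries was the least alike of the 3 pairs, with a correlation across genes of 0.873 against 0.981 for CPEB4 RIP and 0.975 for input, and IgG RIP library 1 correlated with the input libraries at 0.939 and 0.933.

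**Figure D1:**
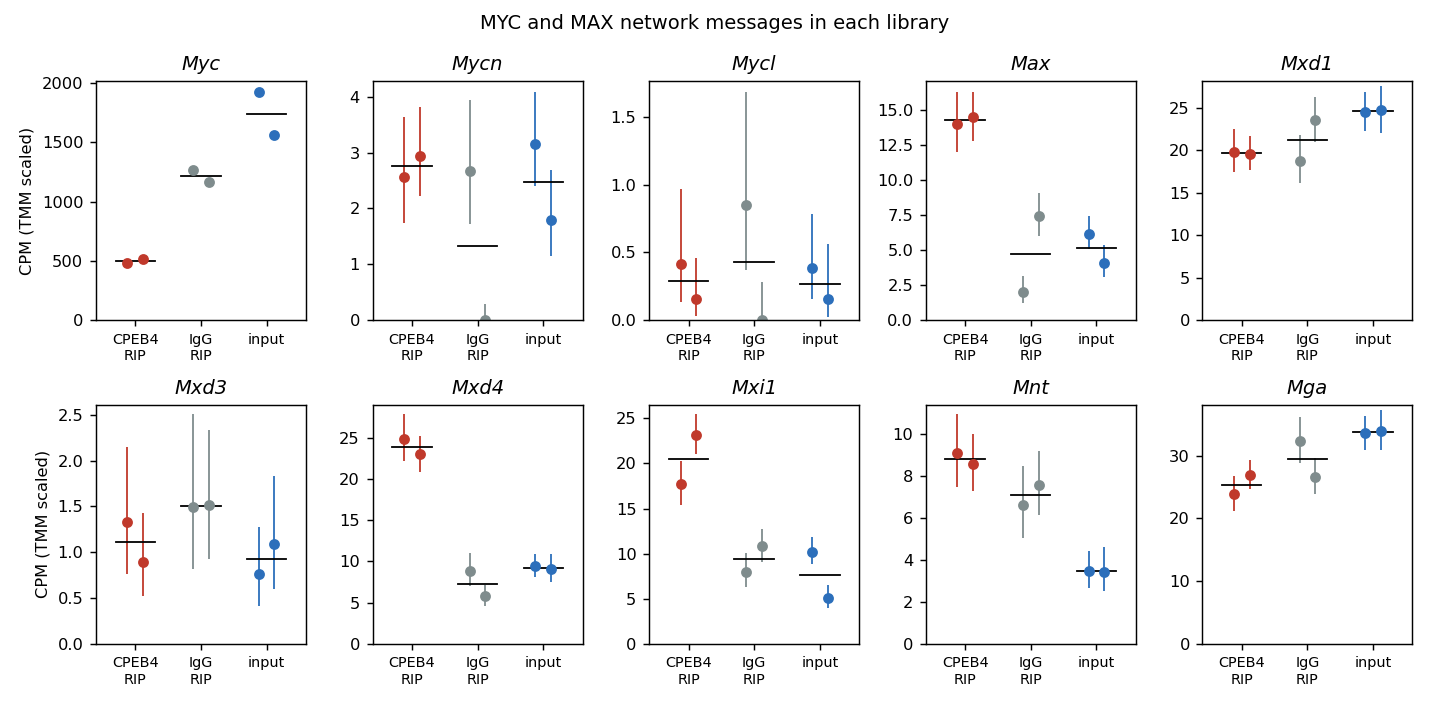
Level of each network gene in every library, in CPM on an axis from 0 that differs between genes. Points are libraries with their 95% exact Poisson intervals, lines are group means, and the groups run CPEB4 RIP, IgG RIP, input. Myc sits at 483 and 516 CPM in CPEB4 RIP, below all other libraries, while Max, Mxd4, Mxi1 and Mnt sit highest in CPEB4 RIP.

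Myc, the family member that carried nearly all of the MYC signal in these cells, was lower in CPEB4 RIP than in IgG RIP and in input. It lies on chromosome 15 (61985341-61990361, GRCm38.p6). Its level was 483 and 516 CPM in the CPEB4 RIP libraries, 1264 and 1165 CPM in the IgG RIP libraries and 1925 and 1562 CPM in the input libraries. The 3 groups did not overlap. The CPEB4 RIP mean of 499.6 ± 22.9 CPM was 0.412 of the IgG RIP mean of 1214 ± 70.1 and 0.286 of the input mean of 1744 ± 257 (SD, n = 2 each). By edgeR's quasi-likelihood test the log2 fold change was -1.28 (SE 0.15, adjusted p = 0.00789) against IgG RIP and -1.80 (SE 0.15, adjusted p = 0.00184) against input. These are bulk libraries, in which fewer cells of a type and less RNA per cell cannot be told apart, and a difference between a precipitate and input is one of recovered shares. The CPEB4 RIP libraries stand on one side of both comparisons, so the pair of results is not independent. Against input the call held when each library was left out in turn (adjusted p at most 0.0377), while against IgG RIP it was lost without CPEB4 RIP library 1 (-1.03, adjusted p = 0.0902) or library 2 (-1.28, adjusted p = 0.157).

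Mycn and Mycl, the paralogs of Myc best known from neural and epithelial tissues, were near the limit of detection. Mycn, on chromosome 12 (12936093-12941836), had 31 and 56 counts in CPEB4 RIP, 25 and 0 counts in IgG RIP, and 58 and 23 counts in input. That came to 2.57 and 2.94 CPM in CPEB4 RIP, 2.67 and 0 CPM in IgG RIP, and 3.15 and 1.80 CPM in input. The groups overlapped in both comparisons with CPEB4 RIP apart from the empty IgG RIP library, whose floor of 3 counts is 0.227 CPM. The CPEB4 RIP mean of Mycn was at least 12.2-fold higher than that floor, and similar to the other IgG RIP library. Neither difference of Mycn passed edgeR's test (1.09, SE 1.33, adjusted p = 0.633 against IgG RIP, and 0.15, SE 1.28, adjusted p = 0.954 against input). Without IgG RIP library 1 the contrast of Mycn with the empty library alone passed it (adjusted p = 3.36e-06). Mycl, on chromosome 4 (122995588-123002490), had 5 and 3 counts in CPEB4 RIP, 8 and 0 counts in IgG RIP, and 7 and 2 counts in input, and it was not tested. No difference in Mycl was detectable at 25 counts in all.

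Max, the shared dimer partner of MYC and its antagonists, was at its highest in both CPEB4 RIP libraries, but it did not pass edgeR's test. It lies on chromosome 12 (76937269-76962323), and its window is printed above. Its level was 14.0 and 14.5 CPM in CPEB4 RIP, 2.03 and 7.40 CPM in IgG RIP, and 6.15 and 4.06 CPM in input. Every library outside CPEB4 RIP lay below these values, and the CPEB4 RIP mean was 3.02 times that of IgG RIP and 2.79 times that of input. The log2 fold change of Max by edgeR was 1.57 (SE 0.57, adjusted p = 0.132) against IgG RIP and 1.47 (SE 0.57, adjusted p = 0.141) against input. The spread was widest in IgG RIP, where counting error alone (95% exact Poisson intervals) put Max at 1.22 to 3.16 CPM in library 1 and at 6.01 to 9.02 CPM in library 2. With IgG RIP library 1 left out, the difference of Max against IgG RIP was 1.12 (adjusted p = 0.00735), and with library 2 left out it was 2.94 (adjusted p = 5.3e-07). In these fits 1 IgG RIP library stands alone and is assumed to vary like the libraries of the other groups, so their p-values, here and for Mycn and Mxi1, leave out the spread within IgG RIP. DESeq2's Wald test on all 6 libraries put the difference of Max against IgG RIP at an adjusted p of 0.0494. In the simulated data described below, 38.7% of that test's calls were false.

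Among the antagonists, Mxd4, Mxi1 and Mnt were at higher values in CPEB4 RIP than in all 4 other libraries, and Mxd4 passed the test in both comparisons. Mxd4, an antagonist associated with differentiated and resting cells, lies on chromosome 5 (34176580-34187710). Its level was 24.9 and 23.0 CPM in CPEB4 RIP, 8.85 and 5.74 CPM in IgG RIP, and 9.41 and 9.06 CPM in input. CPEB4 RIP did not overlap either group, at 3.28 times the IgG RIP mean and 2.59 times the input mean. By edgeR's test Mxd4 was higher by 1.72 (log2, SE 0.31, adjusted p = 0.0201) against IgG RIP and by 1.37 (SE 0.30, adjusted p = 0.026) against input. The call against IgG RIP was lost without CPEB4 RIP library 1 (1.87, adjusted p = 0.128) or library 2 (1.83, adjusted p = 0.23). The call against input was lost without any 1 of the 4 libraries compared (1.36 to 1.49, adjusted p = 0.169 to 0.211).

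Mxi1, which recruits the SIN3 corepressor as the MXD proteins do, lies on chromosome 19 (53310128-53373293). Its level was 17.7 and 23.2 CPM in CPEB4 RIP, 7.997 and 10.8 CPM in IgG RIP, and 10.2 and 5.08 CPM in input. CPEB4 RIP did not overlap either of the other groups, with its mean at 2.18 times that of IgG RIP and 2.67 times that of input. IgG RIP and input overlapped each other. By edgeR the difference of Mxi1 did not pass the test, at 1.12 (SE 0.40, adjusted p = 0.124) against IgG RIP and 1.41 (SE 0.40, adjusted p = 0.0583) against input. With either IgG RIP library left out Mxi1 passed in both comparisons, with adjusted p of at most 0.00457.

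Mnt, the broadly expressed antagonist that is also found in dividing cells, lies on chromosome 11 (74830806-74845725). Its level was 9.11 and 8.56 CPM in CPEB4 RIP, 6.61 and 7.55 CPM in IgG RIP, and 3.48 and 3.44 CPM in input. The values of CPEB4 RIP lay just above IgG RIP, and both precipitates lay above input. Against input Mnt was higher by 1.35 (log2, SE 0.36, adjusted p = 0.0475 by edgeR), a call lost without any 1 of the CPEB4 RIP or input libraries (1.36 to 1.46, adjusted p = 0.234 to 0.355). Against IgG RIP the difference of Mnt was 0.32 (SE 0.35, adjusted p = 0.592).

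The other antagonists passed in no comparison. Mxd1, induced in differentiating cells, lies on chromosome 6 (86647044-86669234) and had 19.8 and 19.6 CPM in CPEB4 RIP, 18.8 and 23.5 CPM in IgG RIP, and 24.5 and 24.7 CPM in input. Mga, a large protein that joins MAX to the PRC1.6 Polycomb complex, lies on chromosome 2 (119872503-119970129) and had 23.9 and 26.9 CPM in CPEB4 RIP, 32.3 and 26.7 CPM in IgG RIP, and 33.6 and 34.0 CPM in input. Both genes overlapped between CPEB4 RIP and IgG RIP and lay below input in CPEB4 RIP. By edgeR the differences were -0.10 (adjusted p = 0.8) for Mxd1 and -0.21 (adjusted p = 0.548) for Mga against IgG RIP, and -0.32 (adjusted p = 0.398) and -0.41 (adjusted p = 0.248) against input, each with an SE of 0.21 to 0.23. Mxd3, known for its expression in dividing progenitors, lies on chromosome 13 (55325170-55329900) and had 14 to 20 counts in every library. Its differences did not pass (-0.44, adjusted p = 0.739 against IgG RIP, and 0.26, adjusted p = 0.859 against input, by edgeR), and its counts are uncertain because the gene overlaps Prelid1 and the sources used here do not state whether the counting used strand.

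**Figure D2:**
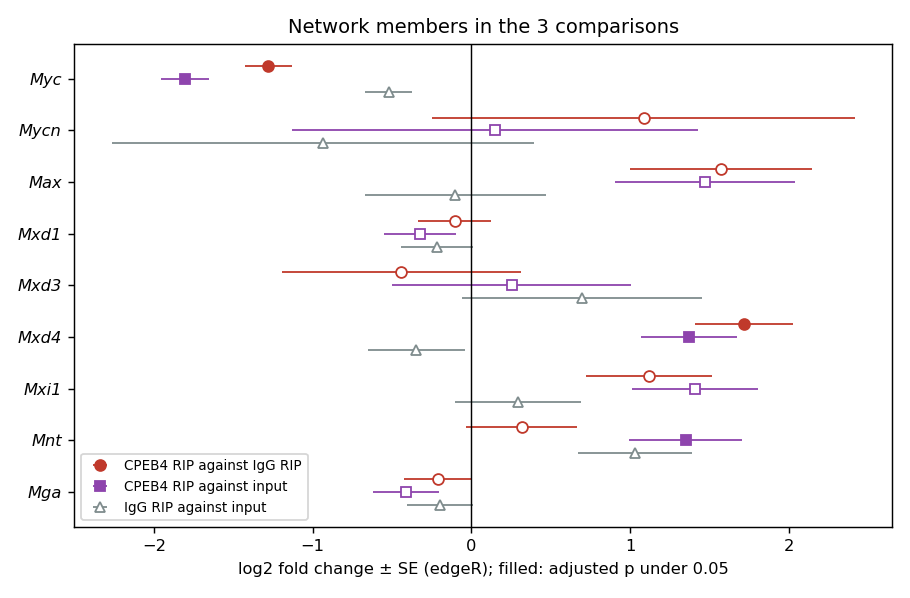
Log2 fold change of each tested network gene in CPEB4 RIP over IgG RIP (circles), CPEB4 RIP over input (squares) and IgG RIP over input (triangles), with bars of 1 SE, from the edgeR fit of all 6 libraries. Filled symbols have an adjusted p under 0.05. Myc lies at -1.28 and -1.80, Mxd4 at 1.72 and 1.37, and Mycn has the widest bars, with SE up to 1.33.

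Counted over the list, 1 member was higher (Mxd4) and 1 lower (Myc) in CPEB4 RIP than in IgG RIP, and 7 of 9 did not pass, where 4.79% of all genes tested were higher and 3.42% lower (8.21% in either direction). With libraries scaled by their totals alone, the 864 higher and 618 lower genes of that comparison became 903 and 1026. Against input, 2 members were higher (Mxd4, Mnt), 1 was lower (Myc) and 6 did not pass, beside 8% of all genes higher and 4.7% lower (12.7% in either direction). There the 1445 higher and 849 lower genes became 1093 and 1409 by library totals, with the median of all genes at -0.27 in place of -0.06. The median log2 fold change of the members was 0.32 against IgG RIP and 0.26 against input, beside -0.07 and -0.06 for all genes tested. In terms of non-overlapping values, 4 members were higher and 2 lower in CPEB4 RIP than in IgG RIP, where 29.4% and 25.5% of all genes were, and 4 higher and 3 lower than in input, where 34.4% and 37.6% were. The same 4 members lay above all 4 other libraries in both CPEB4 RIP libraries (Max, Mxd4, Mxi1, Mnt), where 22.1% of all genes did. Myc alone lay below all 4, where 17.9% of all genes did. Against IgG RIP edgeR called 37% of all genes without IgG RIP library 1 and 35.1% without library 2, 0.91% without CPEB4 RIP library 1 and 0% without library 2, and 4.75% and 4.45% without input library 1 and 2. Against input it called 38.2% and 37.6% without IgG RIP library 1 and 2, 2.9% and 0.541% without CPEB4 RIP library 1 and 2, and 3.05% and 3.46% without input library 1 and 2. The gain of Max and Mxi1 without an IgG RIP library came with a wide gain over all genes, and the loss of Mxd4 and Mnt with a wide loss. With 2 libraries a group, an exact permutation test of a single gene cannot go below p = 0.333.

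Per length of gene model, as FPKM, the order of the network genes differed between the groups. In CPEB4 RIP the order was Myc at 132 ± 3.5 FPKM, Max at 2.85 ± 0.0081, Mxi1 at 2.16 ± 0.364, Mxd4 at 2.03 ± 0.153, Mxd1 at 2.004 ± 0.0573, Mnt at 1.38 ± 0.0871, Mga at 1.19 ± 0.0778 and Mycn at 0.602 ± 0.0461 (SD, n = 2). The neighbours Mxi1, Mxd4 and Mxd1 differed by less than their spread. In IgG RIP, Mxd1 at 2.03 ± 0.394 FPKM and Mga at 1.30 ± 0.128 followed Myc at 302 ± 6.34, and Mxd4 stood at 0.579 ± 0.154. In input, Mxd1 at 2.49 ± 0.0179 FPKM and Mga at 1.58 ± 0.0069 followed Myc at 461 ± 73.7, and Mnt stood at 0.536 ± 0.0119. Mxd3 and Mycl were at or below 0.429 FPKM in every group mean. Myc thus had the top level among the network genes in every group, and Max held the next place only in the CPEB4 RIP means.

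The FPKM of the 6 antagonists, summed and set against the sum of Myc, Mycn and Mycl, stood at 6.94% and 6.74% for the CPEB4 RIP libraries, 1.94% and 2.24% for the IgG RIP libraries and 1.32% and 1.52% for the input libraries. The CPEB4 RIP mean was 6.84 ± 0.146%, the IgG RIP mean 2.09 ± 0.211% and the input mean 1.42 ± 0.141% (SD, n = 2 each), and CPEB4 RIP did not overlap either of the others. Both terms of the ratio contributed. The antagonist sum was 9.06 and 9.13 FPKM in CPEB4 RIP, 5.95 and 6.66 FPKM in IgG RIP, and 6.75 and 6.20 FPKM in input. Its rise came from Mxd4, Mxi1 and Mnt and not from all 6 antagonists. These 3 summed to 5.47 and 5.65 FPKM in CPEB4 RIP, 2.40 and 2.70 FPKM in IgG RIP, and 2.43 and 1.815 FPKM in input. Mxd1 and Mga had means no higher in CPEB4 RIP than in the other groups. The MYC family sum was 130.5 and 135.5 FPKM in CPEB4 RIP, 307 and 298 FPKM in IgG RIP, and 514 and 409 FPKM in input. Max stood at 2.19% and 2.12% of Myc for the CPEB4 RIP libraries, 0.121% and 0.48% for IgG RIP, and 0.241% and 0.196% for input. A ratio of precipitated messages describes these libraries and not the proteins in the cell.

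**Figure D3:**
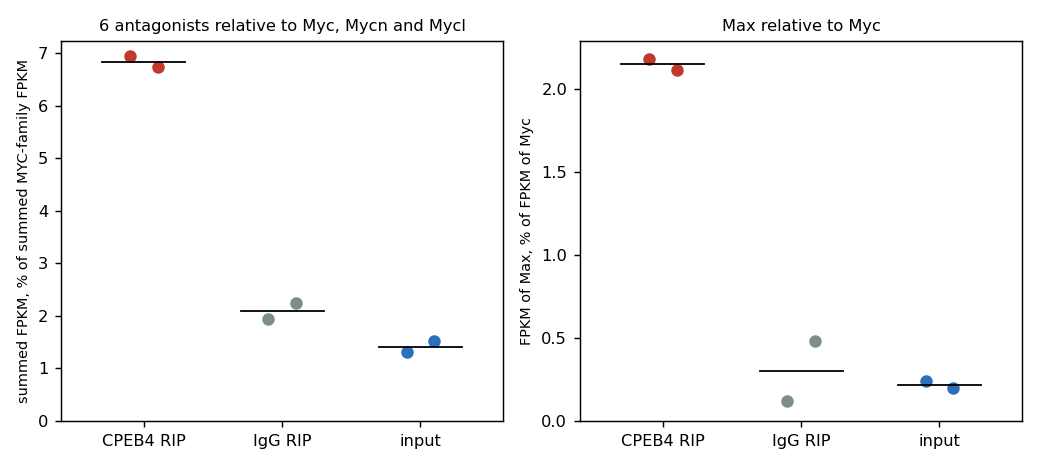
Summed FPKM of the 6 antagonists (left) and FPKM of Max (right) as a percentage of the MYC family and of Myc, with 1 point per library and a line at the group mean, in the order CPEB4 RIP, IgG RIP, input. The CPEB4 RIP means are 6.84% and 2.15%, above every library of the other groups.

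IgG RIP against input shows what the nonspecific antibody recovered, and no network gene passed the edgeR test there, nor did any of the 18054 genes (0%). Unadjusted, 2550 genes had p under 0.05, and DESeq2's Wald test called 706, Myc among them. Myc was 1264 and 1165 CPM in IgG RIP against 1925 and 1562 CPM in input, a log2 difference of -0.52 (SE 0.15, adjusted p = 0.219), and did not overlap. Mnt was on the other side, higher in both IgG RIP libraries, at 1.03 (SE 0.36, adjusted p = 0.27). The members' median difference was -0.20, beside 0.05 for all genes tested. With 1 library left out, the share of all genes called there was 32% without IgG RIP library 1, 8.23% without IgG RIP library 2 and 0% in the other 4 fits. By non-overlap, 2 members were higher and 4 lower in IgG RIP than in input, where 21.4% and 20.7% of all genes were.

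Gene length moved with recovery in CPEB4 RIP. The median log2 fold change against IgG RIP was 0.37 among the 3612 shortest gene models and -0.33 among the 3611 longest, and against input 0.56 and -0.34. In IgG RIP against input the shortest were raised as well, with medians of 0.224 and 0.012. Myc stands at the 34.1 percentile of length, Max at 46.8, Mnt at 59.5, Mxi1 at 78.3, Mxd1 at 79.9, Mxd4 at 86.6 and Mga at 97.8. With a length offset in each library, added after the data were seen, no gene of 18054 (0%) passed edgeR against IgG RIP (3798 at an unadjusted p under 0.05), and Myc stood at -1.39 (adjusted p = 0.0827) and Mxd4 at 1.90 (adjusted p = 0.0826). Against input Myc (-1.63, adjusted p = 0.0279) and Mxd4 (1.74, adjusted p = 0.0314) passed with the offset, where 3.66% of all genes did, and Mnt did not (1.57, adjusted p = 0.0682). Mga changed sign with the offset, to 0.207 against IgG RIP and 0.146 against input. Mxd1 stood at -0.052 and -0.01. The lower values of Mga and Mxd1 in CPEB4 RIP than in input, given above, are thus without regard to length.

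**Figure D4:**
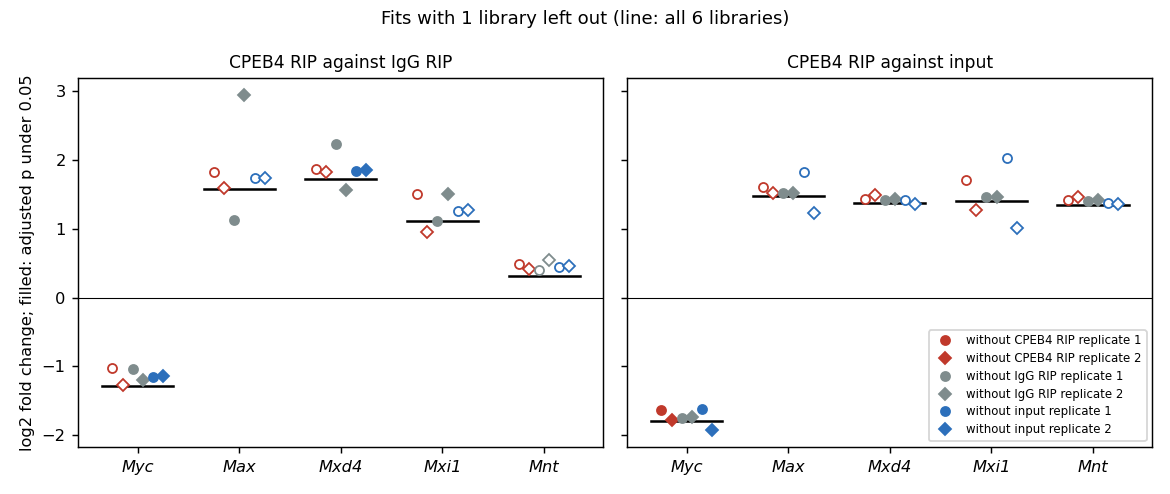
Log2 fold change of 5 network genes in CPEB4 RIP over IgG RIP (left) and over input (right) when each of the 6 libraries is left out in turn (points, filled where the adjusted p is under 0.05), with a line at the value from all libraries. Myc stays between -1.28 and -1.03 against IgG RIP, while Max moves between 1.12 and 2.94 depending on which IgG RIP library remains.

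Genes that act with the network were followed in 7 further lists, in which every gene named in a list was in the table and tested. The lists were chosen with earlier results of these data known, so their counts are a description and not a test of the lists. Their counts stand beside the shares of all genes called, 4.79% higher and 3.42% lower (8.21% in all) against IgG RIP and 8% higher and 4.7% lower (12.7% in all) against input, and their medians beside -0.07 and -0.06 for all genes. The MLX branch, a parallel set of factors that responds to glucose, had 0 of 3 members past the test in either comparison (Mlx -0.63, adjusted p = 0.184, Mlxip 0.21 and Mlxipl 0.19 against IgG RIP, by edgeR). Of 14 MYC cofactors, 1 was higher and 2 were lower in both comparisons, beside 8.21% and 12.7% of all genes called, with list medians of -0.14 against IgG RIP and -0.11 against input. Cdk9, the kinase of the elongation factor P-TEFb, had 64.7 and 69.9 CPM in CPEB4 RIP, 38.0 and 28.3 CPM in IgG RIP, and 21.9 and 22.8 CPM in input. Trrap, the scaffold of histone acetyltransferase complexes, had 15.9 and 14.2 CPM in CPEB4 RIP, 26.3 and 33.4 CPM in IgG RIP, and 44.1 and 44.5 CPM in input. The groups of both genes did not overlap, and by edgeR the log2 fold changes were 1.03 and -0.99 against IgG RIP and 1.59 and -1.56 against input (adjusted p = 0.0299, 0.037, 0.005 and 0.00586). Ruvbl1, an ATPase of chromatin remodelling complexes, was lower by -1.09 and -0.97 on the log2 scale (adjusted p = 0.021 and 0.0203).

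Of 9 corepressors of the MXD proteins, 2 were lower against IgG RIP, beside 3.42% of all genes (median -0.17), and 2 were higher and 3 lower against input, beside 8% and 4.7% (median 0.32). Hdac1, a histone deacetylase, was lower in both comparisons (-0.95 and -0.76, adjusted p = 0.0255 and 0.0349), as was Rbbp7, a histone chaperone of the same complexes (-0.70 and -1.03, adjusted p = 0.0476 and 0.00981). Hdac2, the close relative of Hdac1, had 56.3 and 57.5 CPM in CPEB4 RIP, 20.2 and 51.9 CPM in IgG RIP, and 13.3 and 15.5 CPM in input. It was higher against input (1.98, adjusted p = 0.0203) and not past edgeR's test against IgG RIP (0.65, adjusted p = 0.322), where the pair of libraries disagreed. Sap18, a subunit of the SIN3 complex, was higher by 0.66 against input (adjusted p = 0.0281). Of 9 partners of MGA in PRC1.6, 1 was higher against IgG RIP and 2 against input, with none lower, beside 4.79% and 8% of all genes higher, and with medians of 0.62 and 0.75 beside -0.07 and -0.06 for all genes. These were Tfdp1, the dimer partner of E2F factors (1.22, adjusted p = 0.047 against IgG RIP), and the Polycomb proteins Ring1 (1.57, adjusted p = 0.0205) and Yaf2 (1.12, adjusted p = 0.032) against input.

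Of 12 genes that control MYC protein turnover, 1 was lower against IgG RIP, beside 3.42% of all genes, and none passed against input, beside 12.7% (medians -0.26 and -0.04). The lower one was the ubiquitin ligase subunit Fbxo32, with 4.06 and 5.78 CPM in CPEB4 RIP, 12.8 and 18.4 CPM in IgG RIP, and 7.99 and 7.73 CPM in input (-1.66, adjusted p = 0.0344 against IgG RIP by edgeR). A list of 14 messages of RNA-binding proteins was drawn up as possible binders of the Myc message. It included Cpeb1, Cpeb2, Cpeb3 and Cpeb4, and binding of their proteins to Myc was not tested. Of the 14, 2 were higher and 1 lower against IgG RIP, beside 4.79% and 3.42% of all genes (median -0.29). Against input, 3 were higher and 2 lower, beside 8% and 4.7% (median 0.10). Cpeb4, the message of the precipitated protein, passed in neither comparison by edgeR (-0.415, adjusted p = 0.578, and 0.231, adjusted p = 0.771). Ybx1, a cold-shock protein of messenger ribonucleoproteins, had 411 and 408 CPM in CPEB4 RIP, 117 and 178 CPM in IgG RIP, and 106 and 163 CPM in input (1.47, adjusted p = 0.02, and 1.61, adjusted p = 0.00952). Hnrnpd, which binds AU-rich elements, had 123 and 136 CPM in CPEB4 RIP, 68.5 and 80.9 CPM in IgG RIP, and 33.5 and 34.2 CPM in input (0.79, adjusted p = 0.033, and 1.93, adjusted p = 0.00184). Neither gene overlapped between CPEB4 RIP and the other groups. Hnrnpk, a poly(C)-binding protein, was lower in both comparisons (-0.95, adjusted p = 0.0145, and -0.83, adjusted p = 0.0126), and Tial1, an AU-rich element binder, was higher against input (0.84, adjusted p = 0.0344).

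Of 38 classical MYC targets, 1 was higher and 7 were lower against IgG RIP, beside 4.79% and 3.42% of all genes, and 5 were higher and 8 lower against input, beside 8% and 4.7%, with medians of -0.37 and -0.18 beside -0.07 and -0.06 for all genes. Odc1, the rate-limiting enzyme of polyamine synthesis, was the higher one in both. Its level was 2483 and 3024 CPM in CPEB4 RIP, 884 and 681 CPM in IgG RIP, and 583 and 678 CPM in input, so the target lay opposite to Myc itself (1.82, SE 0.18, adjusted p = 0.00719 against IgG RIP, and 2.13, SE 0.19, adjusted p = 0.00184 against input). Among the lower ones were the nucleolar proteins Nop56 (-0.82, adjusted p = 0.0194, and -1.37, adjusted p = 0.00267) and Wdr43 (-0.95, adjusted p = 0.02, and -1.68, adjusted p = 0.00253), both used in ribosome assembly. Hspd1, a mitochondrial chaperonin, was lower against IgG RIP (-0.80, adjusted p = 0.0175). Fbl, the nucleolar methyltransferase, was higher against input (1.003, adjusted p = 0.00823) and close to IgG RIP (-0.11, adjusted p = 0.677). Tert, named after its values were seen, had no counts in either CPEB4 RIP library and 2.45 and 1.06 CPM in IgG RIP, at least 8.64-fold lower by the floor of 3 counts per library. Against IgG RIP the 8 calls of this list became 1 without CPEB4 RIP library 1, 0 without library 2, 16 without IgG RIP library 1, 12 without IgG RIP library 2, 5 without input library 1 and 4 without input library 2. Against input its 13 calls became 5 and 1 without CPEB4 RIP library 1 and 2, 20 without either IgG RIP library and 5 without either input library. The 10 calls of the other 6 lists against IgG RIP became 0 without either CPEB4 RIP library, 31 and 24 without IgG RIP library 1 and 2, and 5 and 6 without input library 1 and 2. Their 15 calls against input became 3 and 1 without CPEB4 RIP library 1 and 2, 30 without either IgG RIP library, and 6 and 5 without input library 1 and 2. No member of the 7 lists passed edgeR's test between IgG RIP and input.

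**Figure D5:**
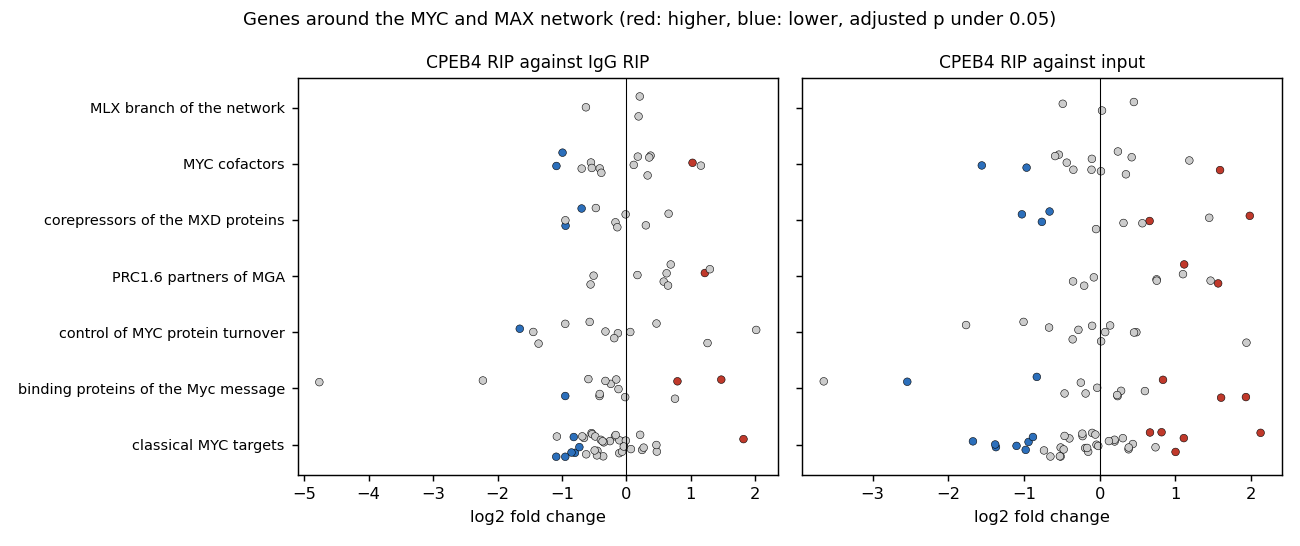
Log2 fold change (x axis) of the genes of the 7 further lists in CPEB4 RIP over IgG RIP (left) and over input (right), with 1 point per gene, red where higher and blue where lower at an adjusted p under 0.05. Tert is left out because it had no counts in CPEB4 RIP. Odc1 is the red point farthest right among the classical MYC targets, at 1.82 and 2.13.

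The genes with the pattern most like Myc over the 6 libraries, by Pearson's r of log2 CPM among 6968 candidates, were P4ha2 (0.996), a collagen prolyl hydroxylase, the translation initiation factor Eif4g1 (0.996), Xab2 (0.995), the arginine methyltransferase Prmt7 (0.995) and the guanylate-binding protein Gbp2 (0.995). P4ha2 had 50.5 and 48.0 CPM in CPEB4 RIP, 106.5 and 106.9 CPM in IgG RIP, and 150 and 130 CPM in input, the same order of groups as Myc. Those most like Mxd4 were the receptor tyrosine kinase Axl (0.996), Nabp2 (0.996), Gas6 (0.994), the ubiquitin ligase Siah1a (0.993) and Fam3c (0.993). Axl had 103 and 108 CPM in CPEB4 RIP, 48.9 and 37.8 CPM in IgG RIP, and 52.1 and 51.2 CPM in input. Gas6, the ligand of AXL, had 102 and 93.1 CPM in CPEB4 RIP, 54.1 and 43.5 CPM in IgG RIP, and 55.6 and 60.0 CPM in input. The 6 points of each correlation fall in 3 groups of libraries and share their depth and scaling, so r describes likeness in these libraries only.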

How the data were processed

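RNA was measured by SMART-seq2 in 6 muscle stem cell libraries, 2 per group. The submitters' processing notes name HISAT2, featureCounts and the mm10 build, and the sources used here give no versions, annotation, strand setting or rule for multiply mapped reads. The deposited counts are raw, and a second deposited table holds FPKM made by the authors with a library total that is not given, used here for levels between genes. No molecular identifiers mark PCR copies, so intervals and floors (3 counts) cover counting error only.

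Counts were analysed with edgeR 4.0.16 in R 4.3.3: filterByExpr (minimum count 10, total 15), TMM scaling and a quasi-likelihood fit with group as its only term over all 6 libraries, with 3 residual degrees of freedom. Two-sided p-values were adjusted by the Benjamini-Hochberg method across the 18054 tested genes, with a threshold of 0.05. In simulated data with 200 genes changed between CPEB4 RIP and IgG RIP, 4% of 2-fold and 43% of 4-fold changes among 16780 genes were recovered, and 13% of 54 calls were false. CPM are TMM-scaled. SE is the absolute log2 fold change divided by the square root of the F statistic. Alternatives were DESeq2 1.42.0, limma 3.58.1 on log2(FPKM + 1) or log2(FPKM + 0.1), other scalings and filters, a replicate block, only the 4 libraries compared, and each library left out. Members, lists and most tests were chosen with earlier results of these data known. All 10 members are named, with up to 4 called genes per list and comparison by smallest p, and the 5 genes most like Myc and Mxd4 by Pearson's r among genes with a mean of at least 10 CPM (prior count 2). Positions and promoter windows are RefSeq's on GRCm38.p6, the mm10 assembly, matched by symbol.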

Additional observations from a re-analysis of the deposited data

How the results depend on the processing

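Over 17 alternatives, Myc, Max, Mxd4, Mxi1 and Mnt kept the sign of their differences in both comparisons with CPEB4 RIP. Myc passed in 14 of 17 against IgG RIP (log2 fold change -1.39 to -1.03) and in 17 against input (-2.03 to -1.63), Mxd4 in 12 and 10, Max in 4 and 4, Mxi1 in 3 and 5, and Mnt in 0 and 4. The 2 members called against IgG RIP became 4 with no low-count filter (5.3% of all genes called), 3 by DESeq2 (16%), 1 with only the 4 libraries compared (6.29%), 1 with limma on unfiltered FPKM (0.695%), 0 with the gene length offset, and 0 to 5 with 1 library left out. The 3 called against input became 4 by DESeq2 (19.3%) and with no low-count filter (6.4%), 1 with library totals (13.9%), 6 with only the 4 libraries compared (43.3%), 1 with limma on log2(FPKM + 0.1) (11.6%), 1 with limma unfiltered (1.98%), and 1 to 5 with 1 library left out. Between IgG RIP and input the 0 called became 1 by DESeq2 (Myc, 3.91% of all genes called) and 0 to 4 with 1 library left out. The cause was not tested. A library left alone in its group is assumed to vary like those of the other groups.

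With a replicate block, 2, 2 and 0 members passed in the 3 comparisons, and Mnt was lost against input (adjusted p = 0.0763). Deviations of libraries with the same number correlated at 0.133, -0.016 and 0.0697 over all genes, and the labels name no shared preparation, so the numbers were not taken as pairs. Over all genes, the 1482 calls against IgG RIP became 2892 by DESeq2, 2428 unfiltered, 973 with only the 4 libraries, 318 with limma unfiltered and 0 to 7710 with 1 library left out. The 2294 against input became 3479 by DESeq2, 7340 with only the 4 libraries, 908 with limma unfiltered, 661 with the length offset and 117 to 7966 with 1 library left out. The 0 between IgG RIP and input became 706 by DESeq2, 457 unfiltered, 25 with the block and 0 to 6657 with 1 library left out. Without IgG RIP library 1 the median of all genes against IgG RIP was 0.33. Groups of 2 libraries and low counts of Mycn, Mycl and Mxd3 limit what could be detected.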
